A study of Mus musculus with 28 samples.

Results

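Livers of Fah-/- mice that also lacked p53 were compared with livers of Fah-/- mice that also lacked p21, in both cases with NTBC withdrawn completely. The comparison contrasts 8 of the 28 arrays of the study. Of these, 4 are labelled Fah -/-, p53 -/- with 0% NTBC (the p53-null group). The other 4 are labelled Fah -/-, p21 -/- with 0% NTBC (the p21-null group). For the main calls the spread was estimated over all 28 arrays in 7 groups, which include groups on reduced or full NTBC. The 4 arrays labelled Fah -/- with 0% NTBC (the Fah-/- group, with p53 and p21 intact) place both groups against the shared background. A further 4 Fah-/- arrays on full NTBC (a full dose of 7.5 mg per L) are quoted for Cdkn1a, Phlda3 and Eda2r. Every mouse in the study lacked Fah, so no array here shows a liver with intact tyrosine breakdown. Total liver RNA was labelled with Cy3 and hybridised to Agilent mouse arrays with a single colour. The age of the mice, the time spent without NTBC and the construction of the p53 and p21 alleles are not stated in the labels. Nothing in the labels ties the 4 samples of each group to different mice. The p-values below therefore reflect sample-to-sample spread, part of which could be technical.

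FAH is the last enzyme of tyrosine breakdown, and without it reactive intermediates such as fumarylacetoacetate build up in hepatocytes. NTBC (nitisinone) blocks an earlier step, so its withdrawal exposes the liver to those intermediates and to DNA damage and oxidative stress. The transcription factor p53 answers DNA damage by raising genes of cell cycle arrest, death and repair. p21, encoded by Cdkn1a, is the p53 target that inhibits cyclin-dependent kinases. It is one of many p53 targets, some of which can also be raised by other factors. NRF2 is a separate transcription factor that raises glutathione, quinone and drug-conjugating enzymes when reactive compounds modify its inhibitor KEAP1.

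Direct p53 targets and NRF2 targets were the gene groups with the highest shares of lower members in the p53-null livers among the 45 lists examined, leaving aside the 5 sex-chromosome transcripts. Genes higher in the p53-null livers included Fabp3, Aqp3, Krt19, Cd24a and Plin4. Of the 29 tested members of the S phase list, 0 were called. A level is given below as log2 of the processed intensity relative to the 75th percentile of its array, and a difference is the p53-null mean minus the p21-null mean on that log2 scale. A feature (a gene, represented by its brightest probe) was called at an adjusted p under 0.05 by limma with Benjamini-Hochberg adjustment over 20303 features. Of these features, 1024 were higher in the p53-null livers (5.04%) and 1210 were lower (5.96%), together 2234 or 11% of all tested. The 4 and 4 arrays did not overlap for 2611 features (12.9%), and 1547 of the called features were among them. A fold change of at least 2 was reached by 662 called features.

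Several properties of the arrays move with the comparison. Xist and Y-linked transcripts place all 4 p53-null samples and p21-null replicates 1 and 2 as female, and p21-null replicates 3 and 4 as male. Replicates 1 and 2 of both groups shared a slide, which therefore compares females with females. The other 2 p53-null arrays and the other 2 p21-null arrays each lay on a slide of their own with Fah-/- arrays. Within the shared slide 557 features were called (2.74%), 484 of them also called in the main comparison. Between the females of both groups 1570 were called. These counts used the spread over all arrays of the study, so they are not results of the slide or the females by themselves. With the 2 groups fitted alone 492 were called. With slide as a fixed block over the 12 arrays without NTBC 188 were called. Of the 45 lists described below, 40 held a called member in the main comparison, 11 with slide as a fixed block and 24 with normexp background correction. p53-null replicate 1 stood apart, with a mean correlation of 0.967 with the other arrays of its group against 0.983 to 0.985 for these. p21-null replicate 1 was also the lowest of its group, at 0.974 against 0.979 to 0.983. Both arrays lay on the shared slide, which holds 2 arrays per group. Without p53-null replicate 1, 3666 features were called, of which 1826 were higher and 1972 were among the 2234. Without p53-null replicate 4 the count was 1363. Processed intensities at the 75th percentile ran from 379 to 578 on the arrays without NTBC, with 60.3 to 66.6% of probes well above background, and the number of arrays limits the precision.

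The targeted genes gave only partial checks of the genotypes. The dimmer of 2 Trp53 probes read -3.28, -2.32, -2.70 and -2.54 in p53-null replicates 1 to 4 and -0.62, -0.49, -0.43 and -0.81 in p21-null replicates 1 to 4. These groups did not overlap, with a difference of -2.12. The brighter Trp53 probe, used in the fit, differed by -0.30 (SE 0.14, adjusted p = 0.184), so the probes disagree in size. Cdkn1a read 3.77, 3.19, 3.07 and 3.16 in the p53-null livers and 3.09, 3.15, 3.57 and 3.15 in the p21-null livers. The Cdkn1a ranges overlapped and the probe still read a transcript in the mice labelled p21 -/-. The labels do not place either gene's probes relative to its deleted part, so the Cdkn1a probe checks nothing about the deletion. Its mean was 4.28 in the Fah-/- group and -1.40 on full NTBC. Fah itself was lower in the p53-null livers by a log2 difference of -0.74 (SE 0.21, adjusted p = 0.0242), a call lost when any of 4 of the 8 arrays was left out (adjusted p up to 0.0644).

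The promoter sequences of p53 targets are shown because p53 acts by binding a response element made of half-sites, and some known direct targets carry a half-site near their start. Promoters were taken from RefSeq (GRCm38.p6), and the 250 bases before each start were searched on both strands. The p53 consensus half-site occurred in 2341 of 32851 promoters (7.13%) and in 2216 of 27025 genes (8.2%). It occurred in 7 of the 16 feedback and arrest targets with a promoter in the table (43.8%), in 2 of 9 death targets (22.2%) and in 1 of 12 repair and metabolism targets (8.33%). The 7 feedback and arrest targets with the half-site comprised 3 that were lower, Sesn1, which was higher, and Cdkn1a (0.06), Ppm1d (-0.30) and Gadd45a (-0.45), which were not called. Of the 8 tested targets of that list without it in this window, 6 were lower. The carriers in the other lists, Bax, Aen and Polk, were lower. Capitals mark the half-site in each stretch, read 5′ to 3′ on the strand of the gene. The windows lie at chr10:117710920-117710959 (Mdm2, minus strand), chr11:40755447-40755486 (Ccng1, minus), chr10:41887251-41887290 (Sesn1, plus), chr6:67037423-67037462 (Gadd45a, minus), chr7:45467075-45467114 (Bax, minus), chr7:78895922-78895961 (Aen, plus), chr9:36797335-36797359 (Ei24, minus) and chr13:96519394-96519433 (Polk, minus). A match describes letters only and is no evidence of binding in these livers.
Mdm2: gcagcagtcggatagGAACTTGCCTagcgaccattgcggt
Ccng1: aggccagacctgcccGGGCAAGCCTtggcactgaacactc
Sesn1: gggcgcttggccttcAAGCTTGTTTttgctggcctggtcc
Gadd45a: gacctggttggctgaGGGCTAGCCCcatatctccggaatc
Bax: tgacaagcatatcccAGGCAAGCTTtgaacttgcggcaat
Aen: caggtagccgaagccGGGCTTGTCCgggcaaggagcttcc
Ei24: tgccccgtgcggcccGGGCATGCCC
Polk: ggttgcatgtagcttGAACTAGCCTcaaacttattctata

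Most feedback and arrest targets of p53 were lower in the p53-null livers. Of 18 members 17 could be tested, and 11 were lower and 1 was higher, with a median difference of -0.82 against 0.00 over all features. Mdm2, the ubiquitin ligase that degrades p53, read 1.51, 1.48, 1.33 and 1.45 in the p53-null livers and 2.47, 2.84, 2.79 and 2.43 in the p21-null livers. All p53-null arrays lay below all p21-null arrays, with a difference of -1.19 (SE 0.12, adjusted p = 1.39e-06), and a dimmer Mdm2 probe differed by -1.35. Phlda3, an inhibitor of AKT signalling, read 1.92, 3.07, 2.60 and 3.13 against 4.87, 4.90, 4.85 and 4.52, a difference of -2.10 (SE 0.27, adjusted p = 2.67e-05). Ccng1, which encodes cyclin G1, read 1.63, 2.71, 2.47 and 2.86 against 3.64, 4.02, 4.08 and 3.67, a difference of -1.44 (SE 0.20, adjusted p = 7.46e-05). Both genes had their lowest reading in p53-null replicate 1, and neither overlapped between groups.

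Psrc1, a microtubule-associated protein, had the largest fall of the feedback and arrest list at -2.60 (SE 0.57, adjusted p = 0.00464). Plk2, a polo-like kinase, differed by -1.54, and Zmat3, an RNA-binding protein, by -1.23. Trp53inp1, a stress-induced cofactor of p53, differed by -1.14. Plk3 (-0.81), Ei24 (-0.52) and Sesn2 (-0.63) were lower by less, and the Sesn2 arrays overlapped. Gtse1, which restrains p53, differed by -1.72 and lost its call without p21-null replicate 2, p21-null replicate 3 or p53-null replicate 1 (adjusted p up to 0.0697). Sesn1, a regulator of nutrient signalling, was the member that was higher, at 0.35 (SE 0.10, adjusted p = 0.0254), and it lost its call without p53-null replicate 2 or p21-null replicate 4. Within the shared slide the list's median was -1.14 with 6 members lower, and with slide as a fixed block 7 were lower.

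Of the 12 targets in the death programme, all tested, 5 were lower, 1 was higher and 6 were not called, with a median of -0.50. With slide as a fixed block 2 were lower. Eda2r, a death receptor of the TNF receptor family, read -3.84, -1.64, -2.28 and -1.68 in the p53-null livers and -0.24, 0.49, 0.34 and 0.06 in the p21-null livers. Its groups did not overlap, and the difference of -2.52 (SE 0.42, adjusted p = 0.000474) was the largest of the list. Aen, a nuclease of apoptosis, read 1.35, 1.74, 1.54 and 1.60 against 3.03, 3.06, 2.99 and 2.75, a difference of -1.40 (SE 0.14, adjusted p = 1.31e-06). Bax, a pore-forming BCL2 family protein, read 0.79, 1.18, 0.96 and 1.08 against 1.84, 1.88, 1.99 and 1.73, a difference of -0.86 (SE 0.13, adjusted p = 0.000227). Neither Aen nor Bax overlapped between groups, and both carry the half-site printed above.

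Tnfrsf10b, the mouse TRAIL receptor, differed by -1.53 (adjusted p = 0.00621). Bbc3, which encodes the BH3-only protein PUMA, differed by -0.58 and lost its call without p21-null replicate 2, p53-null replicate 3 or p53-null replicate 4 (adjusted p up to 0.116). Perp, a desmosome protein and p53 target, was higher by 0.56 with overlapping arrays, and lost its call when any of 4 of the 8 arrays was left out (adjusted p up to 0.10). In the wider BCL2 family 3 of 14 tested members were lower and 0 were higher (21.4% called, against 11% of all features). These were Bax, Bbc3 and Bcl2l2, an anti-apoptotic member that differed by -0.38 and lost its call without p53-null replicate 3 or 4. Within the shared slide 3 death targets were lower and the list's median was -0.52.

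The repair and metabolism targets were less uniform. Of 16 members 15 were tested, 7 were lower, 1 was higher and the median was -0.54. Polk, a translesion polymerase, read -1.02, -1.04, -1.30 and -1.13 in the p53-null livers and -0.40, -0.21, -0.03 and -0.26 in the p21-null livers. The 4 lowest readings were all p53-null, with a difference of -0.90 (SE 0.10, adjusted p = 9.11e-06). Ddb2, a damage recognition protein of nucleotide excision repair, went the other way and read 0.14, 0.49, 0.46 and 0.76 against -0.71, -0.44, -0.44 and -0.51. Every p53-null array was above every p21-null array, with a difference of 0.99 (SE 0.15, adjusted p = 0.000176). Ercc5, an excision repair nuclease, differed by -0.69, Dglucy by -0.94 and Dcxr, a carbonyl reductase, by -1.07. Ephx1, Fdxr and Cpt1c were also lower, at -0.61, -0.54 and -1.62, but each lost its call when some arrays were left out (2, 4 and 6 of the 8), and the Fdxr arrays overlapped. Without p53-null replicate 4 the number of lower members was 4, with normexp 3 and with slide as a fixed block 2.

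The Fah-/- group places these differences. Against Fah-/- livers without NTBC, the median difference of the feedback and arrest list was -0.69 in the p53-null and 0.17 in the p21-null group, and that of the death list was -0.66 and -0.02. The repair and metabolism list had medians of -0.17 and 0.09. Both comparisons share the same 4 Fah-/- arrays, which read as male apart from replicate 2, and all p53-null samples read as female. Mdm2 differed from the Fah-/- group by -1.24 in the p53-null livers (adjusted p = 7.58e-07) and by -0.05 in the p21-null livers (adjusted p = 0.858). Ddb2 differed by 0.94 and -0.04. The p53-null mean of Phlda3 was 2.68 beside -0.29 in Fah-/- livers on full NTBC, a pair of means given without a test. Eda2r was not well above background on any Fah-/- array on full NTBC, and the p53-null mean was at least 4.08-fold above the background limit there.

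**Figure D1:**
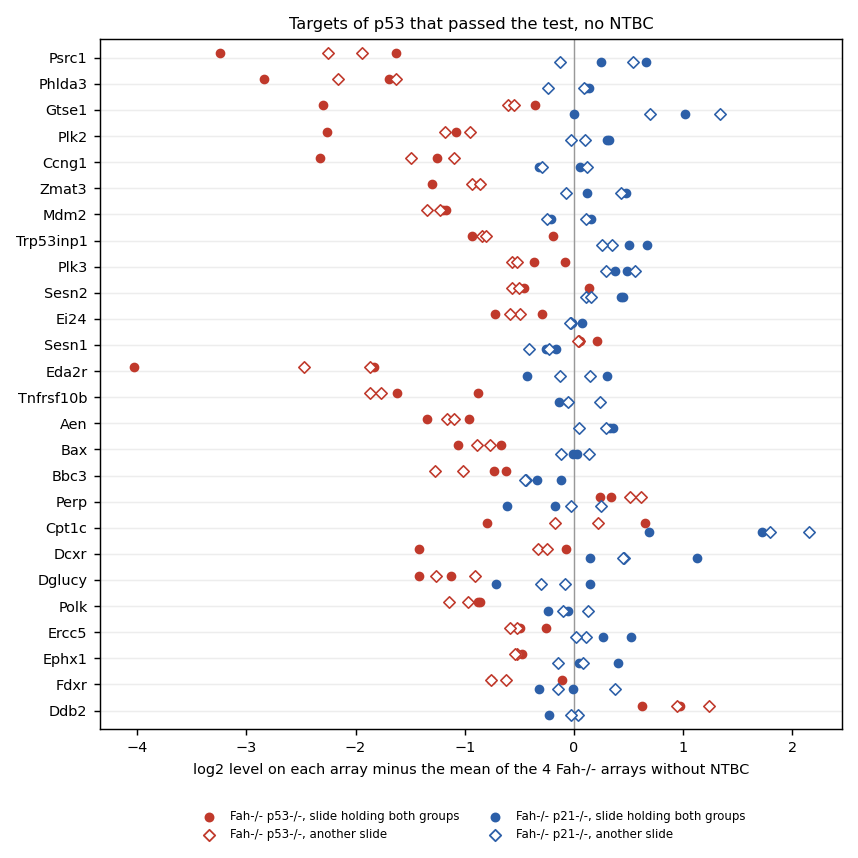
Levels of p53 target genes on each array without NTBC, as log2 units from the mean of the 4 Fah-/- arrays without NTBC (x axis), with red for p53-null and blue for p21-null livers, filled circles for the slide that holds both groups and open diamonds for other slides. Mdm2, Phlda3, Ccng1, Aen and Bax have every p53-null array to the left of every p21-null array, and Ddb2 has the reverse order.

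Most NRF2 target genes were lower in the p53-null than in the p21-null livers. Of 36 members 35 were tested, and 23 were lower while 0 were higher, with a median of -0.70. The count of 23 compares with 5.96% of all features, and 28 members had an unadjusted p under 0.05. Within the shared slide the median was -0.73 with 6 members lower, across the other slides it was -0.67, and among females 18 were lower. With slide as a fixed block 2 members were lower and the median was -0.61. Without p53-null replicate 4 the number lower was 15, and without p53-null replicate 1 it was 21.

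The core of the antioxidant response element, TGACNNNGC, is the sequence through which NRF2 acts, and it is shown for 6 NRF2 targets that carry it in the 250 bases before a start and were lower. It occurred in 3338 of 32851 promoters (10.2%), in 3112 of 27025 genes (11.5%) and in 10 of the 31 NRF2 targets with a promoter in the table (32.3%). Of these 10 targets, 8 were lower and 2 were not called, and of the 20 tested targets without the core in this window 10 were lower. Capitals mark the core, which reads TGACNNNGC or its reverse complement. Htatip2, Abcc2, Prdx1 and Txnrd1 are named for this match, after their values were seen. The windows lie at chr3:122245408-122245446 (Gclm, plus strand), chr7:49759448-49759486 (Htatip2, plus), chr19:43782195-43782233 (Abcc2, plus), chr4:116685451-116685489 (Prdx1, plus), chr10:82859099-82859137 (Txnrd1, plus) and chrX:74428914-74428952 (G6pdx, minus).
Gclm: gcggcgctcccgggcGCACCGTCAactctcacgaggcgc
Htatip2: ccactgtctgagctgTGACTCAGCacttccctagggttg
Abcc2: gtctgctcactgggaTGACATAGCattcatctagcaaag
Prdx1: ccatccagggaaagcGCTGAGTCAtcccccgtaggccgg
Txnrd1: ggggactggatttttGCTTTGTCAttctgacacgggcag
G6pdx: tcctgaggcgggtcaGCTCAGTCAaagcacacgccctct

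Nqo1, a quinone reductase and a standard NRF2 readout, read 3.13, 3.07, 2.97 and 2.76 in the p53-null livers and 4.59, 4.41, 3.92 and 3.94 in the p21-null livers. Its groups were separate, with a difference of -1.23 (SE 0.20, adjusted p = 0.000362). Hmox1, which degrades heme, read 4.89, 5.51, 5.69 and 5.5 against 6.62, 6.82, 6.97 and 6.77, a difference of -1.40 (SE 0.28, adjusted p = 0.00231). Gclm, the modifier subunit of the enzyme that limits glutathione synthesis, read 1.97, 2.38, 2.43 and 2.16 against 3.17, 3.18, 3.28 and 3.27, a difference of -0.99 (SE 0.19, adjusted p = 0.00167). No Hmox1 or Gclm array of either group crossed into the other group's range. The glutathione transferases Gstm4 and Gstm2 differed by -1.21 and -0.95.

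G6pdx, which makes NADPH in the pentose phosphate pathway, differed by -1.38 (SE 0.32, adjusted p = 0.0064), but its arrays overlapped because p53-null replicate 1 read 5.33 and the other p53-null arrays 3.56 to 4.03. The export pump Abcc2 differed by -0.85, Htatip2 by -0.84 and the peroxiredoxin Prdx1 by -0.48, none with overlap between groups. Txnrd1, a thioredoxin reductase, differed by -0.48 (adjusted p = 0.0431) and lost its call when any of 7 of the 8 arrays was left out (adjusted p up to 0.125). Relative to Fah-/- livers without NTBC, the median of the list was -0.37 in the p53-null and 0.31 in the p21-null group. These medians lay on opposite sides of the Fah-/- group, but single Fah-/- arrays were spread. The list's mean level ran from 5.22 to 5.38 in the p53-null, from 5.97 to 6.09 in the p21-null and from 5.45 to 6.05 in the Fah-/- arrays. Hmox1 differed from the Fah-/- group by 1.44 in the p21-null livers (adjusted p = 0.00315) and by 0.04 in the p53-null livers (adjusted p = 0.943). Nqo1 differed by 0.68 (adjusted p = 0.0397) and -0.56 (adjusted p = 0.0652).

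**Figure D2:**
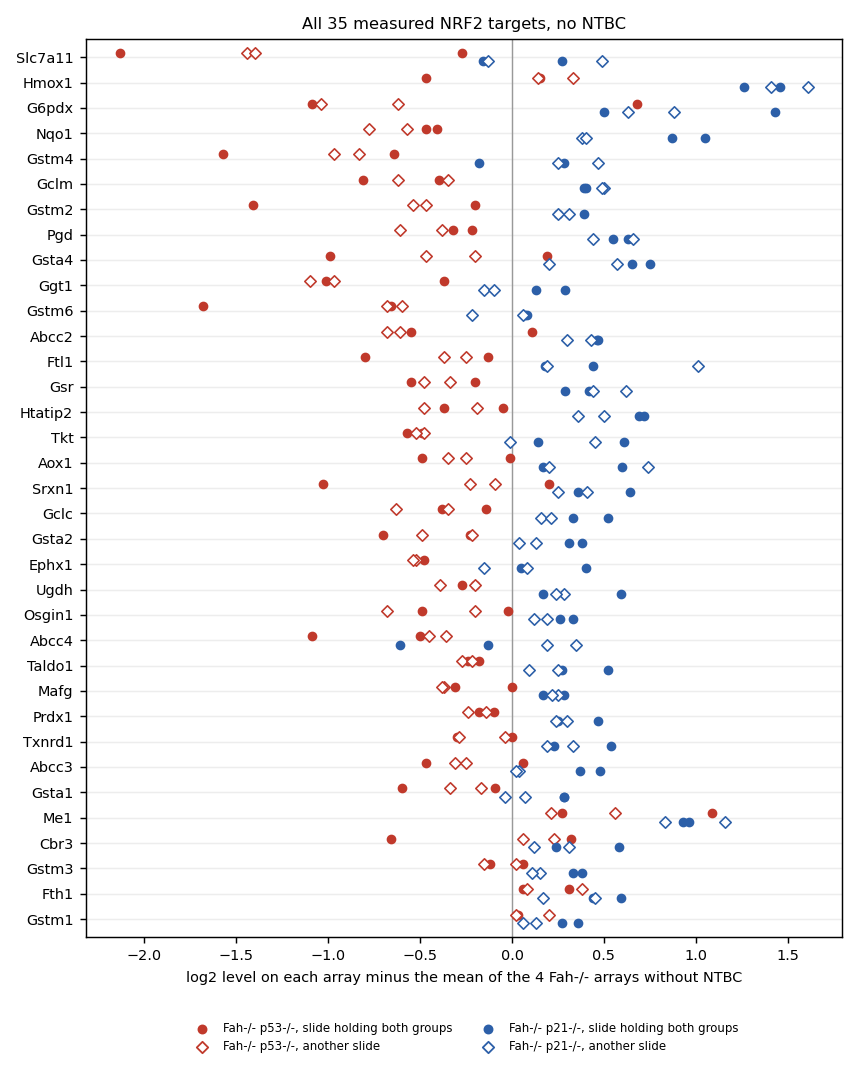
Levels of NRF2 target genes on each array without NTBC, as log2 units from the mean of the 4 Fah-/- arrays without NTBC (x axis), with red for p53-null and blue for p21-null livers, filled circles for the slide that holds both groups and open diamonds for other slides. The p21-null arrays of Hmox1, Nqo1 and Gclm lie to the right of all p53-null arrays.

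The lists of proliferation genes did not separate the groups. Of the 29 tested S phase genes, which encode replication licensing factors and polymerases, limma with Benjamini-Hochberg adjustment called 0, and 0 had an unadjusted p under 0.05. Their median difference was -0.04. Prim2, a DNA primase subunit outside this list, was called lower and is described below. Of 39 tested G2/M genes, 1 was called and 2 had an unadjusted p under 0.05, and the median of -0.33 turned to 0.31 without p53-null replicate 1. The called gene was Pttg1, securin, which was lower at -1.17 (adjusted p = 0.049) and lost its call when any of 7 of the 8 arrays was left out. Against Fah-/- livers without NTBC the G2/M median was 1.58 in the p53-null and 2.05 in the p21-null group. Cdkn2b, the CDK inhibitor p15, was the called member among 20 tested G1 regulators and read 0.18, -0.06, 0.38 and 0.11 in the p53-null against 2.29, 1.60, 2.13 and 2.10 in the p21-null livers. Its 4 p21-null readings were all higher, with a difference of -1.88 (SE 0.43, adjusted p = 0.00576). Of 28 tested DNA repair and checkpoint genes, Nbn, a sensor of double-strand breaks, was higher at 0.39, a call lost without p21-null replicate 1 (adjusted p = 0.0535).

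Among growth and injury signals 1 of 17 tested members was higher and 2 were lower (17.6% called, against 11% of all features). Igfbp2, a carrier of insulin-like growth factors, read 4.66, 4.97, 5.24 and 5.31 in the p53-null livers and 2.86, 3.75, 1.63 and 3.02 in the p21-null livers. All p53-null arrays were higher, with a difference of 2.23 (SE 0.35, adjusted p = 0.000287). Vegfa, the endothelial growth factor, was lower at -0.69. Gdf15, a stress-induced cytokine, read 2.94, 3.40, 3.12 and 2.86 against 4.25, 4.27, 4.26 and 4.13, a difference of -1.14 (adjusted p = 0.0179) that missed the threshold without p53-null replicate 4 (adjusted p = 0.0596). Of 23 tested ATF4 targets, which serve amino acid supply under stress, 3 were lower and 1 was higher (17.4% called). Gdf15 and Sesn2 were among the lower. Slc3a2, a subunit of amino acid transporters, was lower at -0.82, and Nupr1 was higher at 2.0 with overlapping arrays and a call lost when any of 4 of the 8 arrays was left out.

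Among genes with a symbol whose arrays did not overlap, Fabp3, Ccn5 and Aqp3 had the largest differences above 0 in the p53-null livers. Fabp3, the heart-type fatty acid binding protein, read -1.72, 0.83, 1.64 and 2.19 in the p53-null and -3.15, -3.83, -3.20 and -2.13 in the p21-null livers. The groups were separate, p53-null replicate 1 lay closest to the p21-null range, and the difference was 3.81 (SE 0.50, adjusted p = 3.76e-05), 14.1-fold. Aqp3, a water and glycerol channel, read 1.58, 0.81, 1.57 and 1.55 against -3.24, -1.85, -1.48 and -1.0, a difference of 3.27 (SE 0.33, adjusted p = 1.39e-06) and 9.65-fold. Tff1, a mucosal trefoil peptide, differed by 2.97, and Psca, an epithelial surface antigen, by 2.69. The cytoskeletal genes Acta1 (2.66), Eps8 (2.77) and Tppp3 (2.89), the fatty acid hydroxylase Fa2h (2.84), the adrenergic receptor Adra2a (2.85) and the matricellular protein Ccn5 (3.32) were also higher, all without overlap. Of the p21-null arrays, 2 were well above background for Ccn5 and 3 each for Psca and Adra2a.

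Tcstv3, Nrap and Tmem145 were well above background on all 4 p53-null arrays and not well above background on any p21-null array. Their fold changes are bounds, set by the lowest signal well above background on each p21-null array. Nrap, a muscle anchoring protein, was at least 3.94-fold higher in the p53-null livers (adjusted p = 1.39e-06), Tcstv3 at least 3.11-fold (adjusted p = 0.000164) and Tmem145 at least 2.69-fold (adjusted p = 3.48e-05). Compared with the Fah-/- group, Nrap was at least 2.47-fold lower in the p21-null livers (adjusted p = 6.95e-05), while the p53-null log2 difference was 0.67 (adjusted p = 0.15). Aqp3 differed from the Fah-/- group by 4.02 in the p53-null livers (adjusted p = 6.99e-08) and by 0.75 in the p21-null livers (adjusted p = 0.18).

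Of 25 fetal liver and tumour markers, all tested, 6 were higher in the p53-null livers and 1 was lower, with a median of 0.81. That was 28% called, against 11% of all features. Krt19, a keratin of bile duct and progenitor cells, read -0.10, 1.66, 1.63 and 2.06 in the p53-null and -0.75, -2.56, -0.48 and -1.78 in the p21-null livers, without overlap and with a difference of 2.70 (SE 0.51, adjusted p = 0.00142). Cd24a, a surface protein of liver progenitors, differed by 2.23, and Bex1 by 2.50, both without overlap. Cldn6, a fetal claudin, was higher with overlapping arrays (adjusted p = 0.00569). Only 1 of the 4 p21-null arrays was well above background for it, so its log2 difference of 2.58 rests mostly on readings below background. Anxa2 and Lgals3 were higher by 1.14 and 1.23 and lost their calls when any of 3 and any of 6 of the 8 arrays was left out, and the Lgals3 arrays overlapped. Aldoa, the muscle aldolase, was lower at -0.33 with a call lost without any of 7 arrays. Without p53-null replicate 1 the list had 9 members higher and 2 lower, and with slide as a fixed block 0 were called in either direction, at a median of 0.67.

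The called members of the 2 fatty acid lists were all higher. Of 25 tested genes of fatty acid and triglyceride synthesis, 4 were higher and 0 lower, with a median of 0.21. That was 16% called, against 11% of all features. The number higher was 1 with slide as a fixed block or with the 2 groups fitted alone, and 0 with replicate number as a block. Plin4, a lipid droplet coat protein, read 1.32, 1.06, 0.79 and 1.58 in the p53-null and -1.74, -1.98, -0.66 and -0.73 in the p21-null livers. The groups were far apart, with a difference of 2.46 (SE 0.30, adjusted p = 1.64e-05). The desaturases Fads1 and Fads2 were higher by 1.07 and 1.14 without overlap, and the elongase Elovl5 by 0.99, a call lost without p53-null replicate 4. Of 26 tested fatty acid oxidation genes, 6 were higher and 0 lower (23.1% called), with a median of 0.35. That count depended on the scaling, with 13 higher under quantile normalization or in the deposited value table and 0 under normexp. It was also 0 with slide as a fixed block or with the 2 groups fitted alone, and the median stayed between 0.20 and 0.52 under these settings. Acadl, the long-chain acyl-CoA dehydrogenase, was higher by 0.73 (SE 0.15, adjusted p = 0.00222). Cyp4a14 (1.52), Acot1 (0.91), Ppara (0.65), Acaa1b (0.80) and Cpt1a (0.42) were also called, but all of these calls were lost when certain arrays were left out (4, 4, 2, 5 and 6 of the 8), and Acaa1b and Cpt1a overlapped. Without p21-null replicate 3, p53-null replicate 3 or p53-null replicate 4 the oxidation list had 2 members higher, and without p21-null replicate 1 it had 3.

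The largest falls included Tiam2, Prim2 and Imp4, which stood above the Fah-/- group in the p21-null livers. Tiam2, an activator of RAC1, read -3.15, -1.24, -1.93 and -2.69 in the p53-null and 2.64, 3.03, 2.78 and 3.20 in the p21-null livers. The p21-null arrays were all far higher, with a difference of -5.17 (SE 0.82, adjusted p = 0.000317) and 35.9-fold. Relative to the Fah-/- group, Tiam2 differed by 3.52 in the p21-null (adjusted p = 0.0111) and by -1.65 in the p53-null livers (adjusted p = 0.189). Prim2, the large subunit of DNA primase, read -4.61, -4.43, -4.57 and -4.42 against -0.29, -0.02, -0.24 and -0.40. The spread of Prim2 within groups was small beside the difference of -4.27 (SE 0.18, adjusted p = 1.29e-13), and it differed from the Fah-/- group by 4.88 in the p21-null livers (adjusted p = 6.47e-15) and by 0.60 in the p53-null livers (adjusted p = 0.0271). Imp4, a ribosome biogenesis factor, was not well above background on any p53-null array and was at least 4.23-fold higher in the p21-null livers (adjusted p = 1.58e-11). It was not well above background in the Fah-/- group either.

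Prim2, Imp4 and Plekhb2 lie near each other on chromosome 1 in the RefSeq order, with Imp4 8 and Plekhb2 13 measured places from Prim2. Plekhb2, an endosomal protein named after its values were seen, differed by -2.11 (SE 0.19, adjusted p = 4.54e-07). Of the 40 measured neighbours of Prim2, 5 were called (12.5%), close to the 11% over all features. Among the 40 measured neighbours of Cdkn1a on chromosome 17, 6 were called (15%). Of these, Cpne5 (-1.40), Glo1 (-0.84), Dnah8 (-2.86, well above background on 3 p53-null arrays) and Mtch1 (-0.29) were lower and Mapk13 (1.47) and Bnip5 (1.90) were higher in the p53-null livers. The Mtch1 call was lost without p21-null replicate 1, p21-null replicate 3 or p53-null replicate 4. Against the Fah-/- group, 7 of the 40 Cdkn1a neighbours were called in the p21-null livers, beside 7.53% of all features. In the p53-null livers 3 of the 40 were called, beside 14.2% of all features. Cpne5, a calcium-dependent membrane-binding protein, differed from the Fah-/- group by 0.99 in the p21-null (adjusted p = 0.000381) and -0.40 in the p53-null livers (adjusted p = 0.0789).

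Among the 40 measured neighbours of Trp53 on chromosome 11, 6 were also called (15%). Shbg (adjusted p = 0.000106), Chrnb1 (1.72, well above background on 2 p21-null arrays) and Plscr3 (0.36) were higher, and Tmem88 (-1.19), Alox12b (-0.55) and Fxr2 (-0.44) were lower in the p53-null livers. Shbg was well above background on 2 of the 4 p53-null arrays and on no p21-null array, so its fold change is a bound of at least 1.13, and no bound was left without p53-null replicate 2 or 3. Chrnb1 and Alox12b lost their calls when any of 2 and any of 6 of the 8 arrays was left out. Against the Fah-/- group, 12 of the 40 Trp53 neighbours were called in the p53-null livers, beside 14.2% of all features. In the p21-null livers 1 of the 40 was called, beside 7.53% of all features. Tmem88, an inhibitor of WNT signalling, differed from the Fah-/- group by -1.5 in the p53-null livers (adjusted p = 3.03e-05) and by -0.30 in the p21-null livers (adjusted p = 0.38).

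Other genes with large falls were Ptgs2, Cyp2g1, Pthlh, Defb8, Il1f9, Clec12b and Lypd6b. Ptgs2, cyclooxygenase 2, was not well above background on any p53-null array, read -0.05, -2.84, -3.06 and -2.84 in the p21-null livers and was at least 9.29-fold higher there (adjusted p = 1.62e-06). Replicate 1 was the highest of these, and without it the bound was 5.66-fold. Cyp2g1 read -0.87, -1.83, -1.63 and -2.65 against 2.22, 2.13, 1.66 and 2.59, a difference of -3.90 (SE 0.37, adjusted p = 6.85e-07). All p21-null arrays of Cyp2g1 were above all p53-null arrays, and the p21-null group differed from the Fah-/- group by 0.14 (adjusted p = 0.866). Pthlh, a parathyroid hormone-related peptide, was at least 5.48-fold higher in the p21-null livers (adjusted p = 0.000818), and Defb8, a defensin well above background on 3 of the 4 p21-null arrays, at least 2.33-fold (adjusted p = 0.000726). The Defb8 bound was 4.56-fold without p21-null replicate 2 and 1.38-fold without p21-null replicate 4. The cytokine Il1f9 (-3.34), the lectin receptor Clec12b (-2.60) and Lypd6b (-2.96) were lower without overlap.

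**Figure D3:**
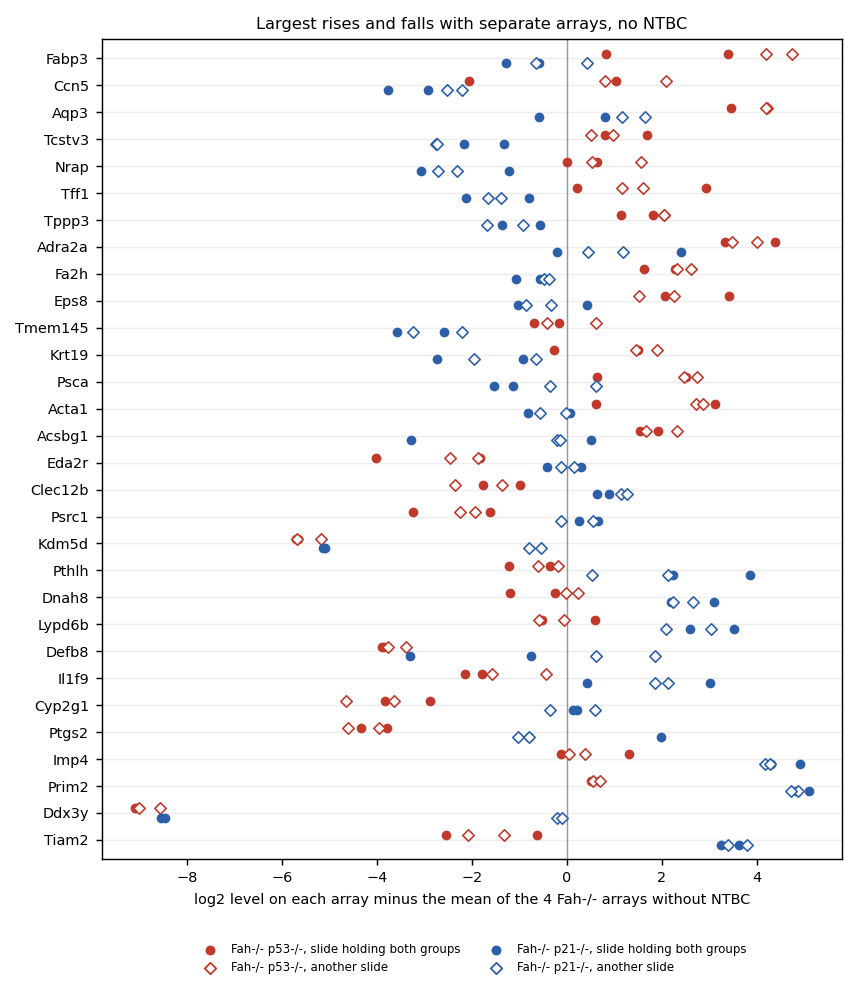
Genes with the largest called differences whose arrays do not overlap, each array shown as log2 units from the mean of the 4 Fah-/- arrays without NTBC (x axis), with red for p53-null and blue for p21-null livers, filled circles for the slide that holds both groups and open diamonds for other slides. Aqp3 and Fabp3 lie to the right of zero in the p53-null livers, whereas Prim2, Tiam2 and Imp4 lie to the right of zero in the p21-null livers.

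Of 42 tested secreted plasma proteins, which hepatocytes release into the blood, 14 were lower, 0 were higher and 28 were not called. That was 33.3% called, against 11% of all features, and the list's median was -0.28. With slide as a fixed block 0 were called, with slide as a random block 2, with the 2 groups fitted alone 2, with normexp 1 and across the other slides 1, at medians from -0.42 to -0.23. Under quantile normalization 8 were lower. Without p53-null replicate 4, 5 were lower. Hpx, the heme carrier hemopexin, read 7.56, 7.49, 7.49 and 7.52 in the p53-null and 8.10, 8.39, 7.91 and 8.09 in the p21-null livers, separate and different by -0.61 (SE 0.14, adjusted p = 0.00511). F12, a coagulation factor, differed by -0.84 (adjusted p = 0.000756). Without p21-null replicate 2 the list had 8 lower members and without p21-null replicate 4 it had 9. Fetub (-0.83), Hrg (-0.80), F11 (-0.74) and Azgp1 (-0.68) lost their calls without p53-null replicate 4 among other arrays, and F11 and Azgp1 overlapped.

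Of 29 tested urea cycle and amino acid catabolism genes, 6 were lower, 0 were higher and 23 were not called. That was 20.7% called, against 11% of all features, and the list's median was -0.36. With slide as a fixed block 0 were called, and 6 were lower and 2 higher with quantile normalization or the deposited value table. Cbs, which starts the conversion of homocysteine to cysteine, read 1.03, 1.37, 1.30 and 1.12 against 2.50, 2.59, 2.03 and 2.47, separate and different by -1.19 (SE 0.24, adjusted p = 0.00194). Arg1, the last enzyme of the urea cycle, differed by -0.91, the glycine decarboxylase Gldc by -0.68, the alanine aminotransferase Gpt by -0.64 and the folate enzyme Ftcd by -0.62, all without overlap. Hal, histidine ammonia-lyase, differed by -1.73 with overlapping arrays. Of the 6 tyrosine breakdown genes Fah alone was called.

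Sugar and drug metabolism were mixed. Of 11 tested gluconeogenesis and glycogen genes, 2 were higher and 2 lower (36.4% called, against 11% of all features). Ugp2, which makes UDP-glucose, was lower at -0.81, and Fbp1, a gluconeogenic phosphatase, at -0.78 with overlapping arrays. Gys2 and Ppargc1a were higher at 0.82 and 0.86, with calls lost when any of 6 and any of 3 of the 8 arrays was left out. Among 21 glycolysis genes 1 was higher and 3 were lower (19% called). Slc2a2, the hepatocyte glucose transporter, was higher at 1.85 with overlapping arrays, and Slc2a1, the widespread glucose transporter, was lower at -0.56 without overlap. Relative to the Fah-/- group Slc2a2 differed by -1.88 in the p21-null livers (adjusted p = 0.0051) and by -0.02 in the p53-null livers. Aldoa and Eno1 (-0.44) were the other lower members, and Eno1 lost its call when any of 6 of the 8 arrays was left out.

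Of 31 tested cytochrome P450 genes, 2 were higher and 5 lower (22.6% called, against 11% of all features). Cyp3a25 differed by -1.02 and Cyp2c40 by -0.86, both without overlap, and Cyp2c23 was higher at 1.60 with overlapping arrays. Of 17 tested acute phase genes, 1 was higher and 4 were lower (29.4% called). Il1rn, the natural blocker of the interleukin 1 receptor, read 0.88, 1.70, 1.5 and 1.77 against -0.27, -1.78, -1.08 and -0.32. All p53-null arrays of Il1rn were higher, with a difference of 2.32 (SE 0.36, adjusted p = 0.000262). Orm1 and Itih4 were lower at -1.35 and -1.02, and p53-null replicate 1 read lowest for both. Orm2 (-1.27) and C3 (-0.57) lost their calls when any of 4 of the 8 arrays was left out, and the C3 arrays overlapped.

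Hepatocyte transcription factors went both ways, with 4 of 17 tested members higher and 3 lower (41.2% called, against 11% of all features). Foxa1, a pioneer factor of liver enhancers, read -0.26, -1.25, -0.59 and -0.84 in the p53-null and -2.45, -2.14, -1.62 and -1.67 in the p21-null livers. The p53-null arrays were all higher, with a difference of 1.23 (SE 0.24, adjusted p = 0.00147). Relative to the Fah-/- group Foxa1 differed by 0.17 in the p53-null and by -1.06 in the p21-null livers (adjusted p = 0.00782). Cebpa (-0.66), Nr1h4 (-0.63) and Hnf4a (-0.40) were lower and lost their calls when any of 2, 2 and 6 of the 8 arrays was left out, and Nr1h4 and Hnf4a overlapped. Nr1h4 was also the called member among 17 bile acid genes. Of 20 tested keratin, claudin and junction genes, 3 were higher and 4 lower (35% called). Besides Krt19 and Cldn6, Cldn3 was higher at 0.79, and the connexins Gjb1 (-0.63) and Gjb2 (-0.58), which couple hepatocytes, were lower without overlap. Cldn1 (-0.99) and Cldn14 (-0.63) lost their calls when any of 5 and any of 3 of the 8 arrays was left out, and the Cldn1 arrays overlapped.

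Interferon and chemokine genes depended on p53-null replicate 1. Of 26 tested interferon response genes 3 were higher and 0 lower (11.5% called, against 11% of all features), with a median of 0.80. Without that replicate 19 were higher and the median was 1.36, while 1826 of all 20303 features were higher. The 3 called genes, Ifit3 (1.49), Igtp (1.28) and Irf9 (0.66), had overlapping arrays, and each lost its call when certain arrays were left out (6, 5 and 3 of the 8). Ifit3 read -0.55, 2.52, 2.09 and 2.73 in the p53-null and -0.16, 0.78, -0.32 and 0.53 in the p21-null livers, so that p53-null replicate 1 lay below every p21-null array. Chemokines had 2 of 17 members higher (11.8%), Ccl17 (1.44, well above background on 3 p21-null arrays) and Ccl9 (0.91). Both had overlapping arrays and calls lost when any of 6 arrays was left out. Without p53-null replicate 1, 10 chemokines were higher and the median rose from 0.81 to 1.42. Relative to the Fah-/- group the interferon median was -0.20 in the p53-null and -0.84 in the p21-null livers.

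Few markers of other cells in the liver were called over all 8 arrays, and the counts for several cell types rose without p53-null replicate 1. So did the number higher over all 20303 features. It was 1024 with all arrays, 1826 without p53-null replicate 1, 1077 without p21-null replicate 1 and 1990 without both. In whole tissue, fewer cells of a type and less RNA per cell cannot be told apart. Of 21 macrophage and Kupffer cell markers limma called 0, with 2 at an unadjusted p under 0.05 and a median of 0.39. Without p53-null replicate 1, 4 were higher, and without replicate 1 of both groups 10 were. Sparc, a matrix protein, was the called stellate and matrix marker of 23 and was higher at 1.24 without overlap. Of these 23 markers 5 were higher without p53-null replicate 1, 4 without p21-null replicate 1, and 13 without replicate 1 of both groups. Of 18 lymphocyte markers 8 were higher without p53-null replicate 1 and 6 without both. With slide as a fixed block 0 markers of macrophages, stellate cells or lymphocytes were called. Endothelial markers had Vwf higher (0.68) and Cldn5 lower (-0.66) of 25, which is 8% called against 11% of all features. Both calls were lost when any of 6 arrays was left out. Lymphocyte, neutrophil and erythroid markers had 1 called member each, Prf1 (0.82, well above background on 2 p21-null arrays), Ltf (-2.02) and Alas2 (-1.39), and Prf1 and Ltf lost their calls when any of 4 arrays was left out. Bile duct markers had 2 of 11 higher, Krt19 and Pkhd1 (0.89, with overlap). Of 10 hepatocyte markers, Hnf4a and Trf (-0.38) were lower, the Trf call was lost when any of 3 arrays was left out, and the mean level of the list ran from 5.80 to 6.17 in the p53-null and from 6.19 to 6.5 in the p21-null livers.

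**Figure D4:**
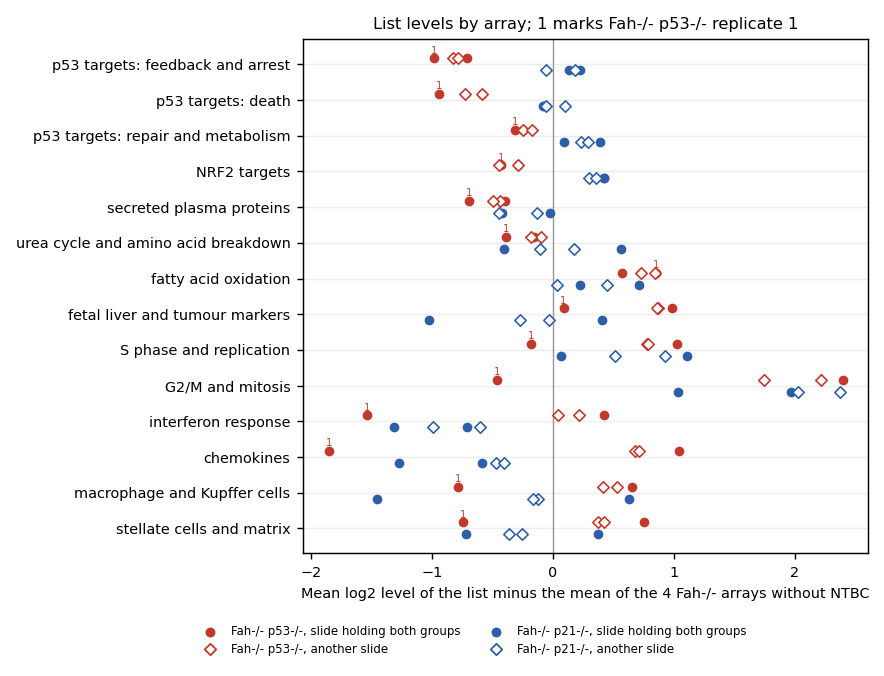
Mean level of each gene list on each array without NTBC, as log2 units from the mean of the 4 Fah-/- arrays without NTBC (x axis), with red for p53-null and blue for p21-null livers, filled circles for the slide that holds both groups, open diamonds for other slides and the digit 1 on p53-null replicate 1. The NRF2 and p53 target lists separate the groups with that array included, whereas interferon and chemokine lists have it below all p21-null arrays.

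The remaining lists held few called members over all 8 arrays. Metallothionein and zinc transport genes had Slc39a5, a zinc importer, higher at 1.44 without overlap and Slc30a1 lower at -0.61 with overlap, of 7 tested, and the Slc30a1 call was lost when any of 6 arrays was left out. Pericentral genes had Lgr5 (1.57) and Rnf43 (0.68) higher of 16, both with overlap and with calls lost when any of 4 and any of 7 of the 8 arrays was left out. Without p53-null replicate 1, 10 pericentral genes were higher and the median moved from 0.61 to 0.86, where 1826 of 20303 features were higher. Without any one of the other p53-null arrays 0 pericentral genes were called. ER chaperones had Pdia4 (-0.54) and Syvn1 (-0.36) lower of 18, with calls lost when any of 4 and any of 6 arrays was left out. Immediate early genes had 1 of 17 higher and 1 lower. Imprinted growth genes had 1 of 14 higher, and 5 without replicate 1 of both groups, where 1990 of 20303 features were higher. Limma called 0 of 25 cholesterol synthesis genes, 0 of 19 clock genes and 0 of 15 heat shock genes, where 4, 4 and 1 had an unadjusted p under 0.05.

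Sex-linked and sex-biased transcripts are given because 2 p21-null samples read as male and the rest of the 8 as female. Xist differed by 4.86 over all arrays, with p21-null replicates 3 and 4 at -6.42 and -6.75 and the other p21-null arrays at 3.49 and 3.39, and by -0.06 within the shared slide. All 5 sex-chromosome transcripts were called over all arrays, and within the shared slide the smallest adjusted p among them was 0.0716, for Kdm5d. Of 15 tested male-biased liver transcripts, 5 were lower and 0 higher, with a median of -0.55. Within the shared slide, which holds females alone, the median was -0.51 with 1 member lower. In the comparison between the females of both groups 2 members were lower. Whether sex contributes to these falls was not tested. Ugt2b38, a glucuronosyltransferase, was lower at -1.14 (SE 0.17, adjusted p = 0.000201) and at -1.22 within the shared slide (adjusted p = 0.00832). Mup3, a major urinary protein, read -3.07, -0.36, -0.66 and -0.77 against -1.87, 2.57, 3.5 and 5.18, with overlap. The call of Mup3 was lost without p21-null replicate 4 (adjusted p = 0.064). Its difference was -3.56 over all arrays, -2.06 within the shared slide (adjusted p = 0.337) and -5.05 across the other slides. Of 18 tested female-biased transcripts 3 were higher and 1 lower, and their median was 0.28 over all arrays and -0.25 within the shared slide. The difference between the slide pairs was itself called for 26 features, 10 of them among the 2234.

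**Figure D5:**
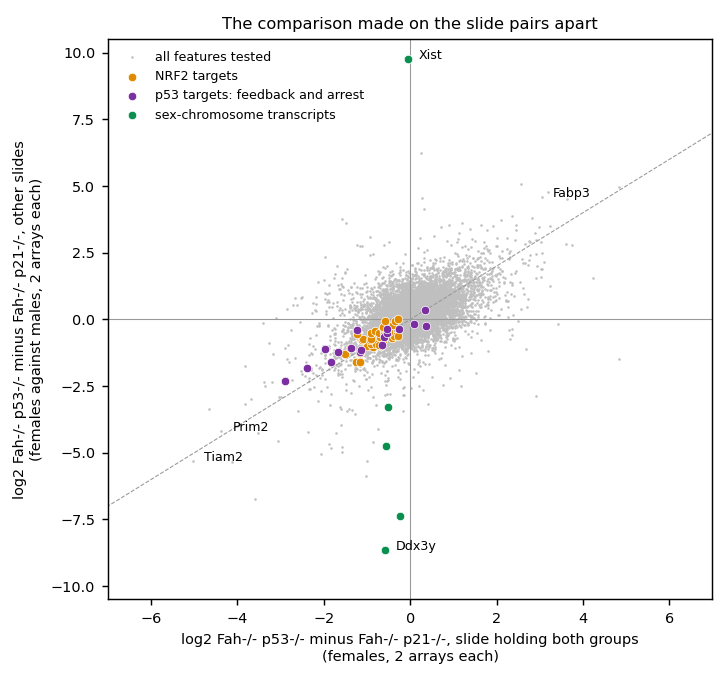
Difference between p53-null and p21-null livers (log2) for each feature within the slide that holds both groups (x axis, females against females) and across the other slides (y axis, females against males), with all features in grey, NRF2 targets in orange, p53 feedback and arrest targets in purple and sex-chromosome transcripts in green. NRF2 and p53 targets have medians below 0 on both axes, and Xist lies near 0 on the x axis and at 9.77 on the y axis.

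For a given gene the Fah-/- group gives a reference level for both double mutants. All p53-null samples read as female, and the p21-null samples as 2 female and 2 male. Genotype and sex therefore cannot be told apart in a departure of the p53-null livers from the Fah-/- group. For the p21-null livers the comparison over all arrays mixes the sexes. However, p21-null replicates 3 and 4 shared a slide with Fah-/- replicates 3 and 4, and all of these read as male. Within that slide 200 features were called between p21-null and Fah-/- livers, 184 of them also called in the full comparison. The p53-null livers differed from it in 2893 features (14.2%) and the p21-null livers in 1529 (7.53%), with the same 4 Fah-/- arrays in both comparisons and males in that group apart from replicate 2, which had an Xist probe and all Y-linked transcripts above background. Each comparison also shares a group with the one that selected the features below, so shares above 14.2% and 7.53% are built in. Of the 1024 features higher in the p53-null than in the p21-null livers, 475 were called in the p53-null and 215 in the p21-null comparison, 31 of them in both, and 365 in neither. Of the 1210 lower features, 526 were called in the p53-null and 193 in the p21-null comparison, 26 in both, and 517 in neither. Aqp3, Plin4, Mdm2 and Cyp2g1 belonged to those called against the Fah-/- group in the p53-null livers alone, and Imp4, Nrap, Tmem145 and Plekhb2 to those called in the p21-null livers alone.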

How the data were processed

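Liver RNA from 28 samples in 7 groups of 4 was measured on Agilent single-colour arrays; 0.1 ug RNA was labelled with Cy3, per the labels' protocols. The deposited scanner files hold processed intensity per spot, made by the authors with Agilent Feature Extraction 10.7.3.1 per the file headers (10.5 per the submitters' processing notes). The deposited value table holds log2 values with no normalization named in the sources; its columns have medians from 6.89 to 6.912 and follow the spots' median intensity, so it served as an alternative.

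Control spots and outlier-flagged spots were left out and spots of a probe averaged. log2 intensity minus the log2 75th percentile of each array was analysed. Probes entered if some group had all 4 of its arrays well above background (27509 of 41174 probes), and a gene was represented by its brightest probe. limma 3.58.1 (R 4.3.3) fitted a mean per group over 28 arrays (21 residual degrees of freedom), with Benjamini-Hochberg adjustment over 20303 features and calls at adjusted p under 0.05. The scripts were tested on simulated data.

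Named genes are the targeted genes, sex-chromosome transcripts, up to 15 largest separate rises and falls, up to 6 members of each list (any member of lists of up to 25), and called neighbours of Trp53 and Cdkn1a, 20 measured genes to each side. The members and lists were chosen with earlier results of these data known. Sex was read from Xist and 4 Y-linked transcripts. Alternatives changed background correction, normalization, filter, probe choice, samples fitted, slide or replicate block, and left out arrays. Coordinates of array probes were not used here.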

Additional observations from a re-analysis of the deposited data

Results flagged for a closer look

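In 346 checks of single genes within a group, 35 (10.1%) had an array whose gap to the nearest other exceeded the critical value of Dixon's test for 4 samples, where chance flags about 1 in 20. Many fell on p53-null replicate 1, which read low for Psca (-2.84, others -1.02 to -0.74), Acta1 (-3.15), Zmat3 (0.33), Gtse1 (-3.20), Cldn6 (-5.22), Orm1 (0.48), Orm2 (1.08), Slc2a2 (0.69), Mup3 (-3.07) and Slc39a5 (-2.26). The same array read high for Trp53inp1 (4.75), Sesn2 (1.88), Abcc2 (6.21), Ppara (3.91), Nr1h4 (3.56), Azgp1 (5.51) and Fxr2 (0.76).

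In the other p53-null arrays, replicate 2 read low for Aqp3 (0.81), Acot1 (6.41) and Acot3 (-1.36) and high for Sesn1 (1.60). p53-null replicate 3 read high for Ddx3y (-7.19) and Kdm5d (-7.07), which are below background there, and replicate 4 for Vwf (1.82).

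In the p21-null group, replicate 1 stood apart for Ptgs2 (-0.05, others -3.06 to -2.84), Cyp3a25 (6.13) and Lgr5 (-2.84). Replicate 2 stood apart for Pttg1 (5.44), Orm1 (2.89), Orm2 (3.51), Slc2a1 (3.47) and Sparc (3.02). Replicate 3 read high for Cdkn1a (3.57, others 3.09 to 3.15), and replicate 4 read low for Phlda3 (4.52) and Gdf15 (4.13).

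For 4 of the genes named here, out of 26 such features in all, the p53-null minus p21-null difference itself differed between the shared slide, which holds females, and the other slides, where p21-null samples are male, by limma's test of that difference with Benjamini-Hochberg adjustment. These were Xist (-9.82), Ddx3y (8.06), Eif2s3y (7.13) and Kdm5d (4.20), in log2 units. Female samples were not well above background for the Y-linked transcripts, nor male p21-null samples for Xist, so these sizes rest partly on readings below background.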

How the results depend on the processing

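The count of called features between p53-null and p21-null livers (2234) was 466 with normexp background correction, 492 with the 2 groups fitted alone, 948 over the 12 arrays without NTBC, 959 with slide as a random block, 188 with slide as a fixed block, 557 within the shared slide, 909 across the other slides and 662 at 2-fold or more. The replicate numbers do not pair the samples (same-number correlations 0.211, -0.092, 0.12 and 0.207), and the replicate block gave 167. Leaving out each array in turn gave 1363 to 3666, and leaving out replicate 1 of both groups 3707. The other settings run on this count, quantile normalization, the value table, no filter, the filter over all 28 arrays, the mean of probes, a variance trend and females alone, gave 1570 to 2381. For p53-null against Fah-/- (2893) the same settings gave 726, 1335, 1304, 1310, 343 and 458 within their slide, 937 at 2-fold, 873 with the replicate block, and 1911 to 3394 without an array. For p21-null against Fah-/- (1529) they gave 183, 352, 414, 415, 85, 200, 597 and, with the replicate block, 126, and 784 to 1491 without an array. Within their shared slide, the p21-null and Fah-/- samples all read as male. The cause was not tested, apart from the fewer arrays or residual degrees of freedom that the smaller fits hold by construction.

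Of 171 called named genes, 168 kept their sign in every alternative and 103 kept the call without each array in turn. The alternatives refit the arrays that gave these calls, so kept signs are largely built in. Of all 2234 called features, 2233 kept their sign within the shared slide and 2232 among females. The difference of Cdkn1a (0.06, not called) was -0.09 with normexp, -0.24 across the other slides, -0.10 without p53-null replicate 1 and -0.15 without replicate 1 of both groups, and over the arrays left out in turn it ran from -0.10 to 0.17. Xist was -0.06 within the shared slide and -0.15 among females, Eif2s3y 0.29 among females and Uty 0.15 with normexp. Normexp moved the median of all features to 0.15. Of 20303 features, those near background carry only a bound where a group is below it.

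The alternatives across the other slides, without replicate 1 of both groups, and the difference between slide pairs were chosen after seeing the data.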
